A study of Homo sapiens with 18 samples.

Results

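The RNA, open chromatin and UBR7 binding of 10 Wnt pathway genes were followed in HEK293T cells with a UBR7 knockout. They are SFRP1, APC2, APC, AXIN1, AXIN2, CTNNB1, GSK3B, LEF1, LRP6 and TCF7L2, which are 10 of the 14177 genes in the deposited RNA table. SFRP1 and APC2 were chosen by their RNA levels in CPM, which differed between knockout and parental libraries, so their RNA changes are given as a description with no test. The other 8 were chosen for their place in the pathway. The question was whether the changes of SFRP1, a secreted Wnt antagonist, and APC2, a protein of the complex that destroys beta-catenin, were accompanied by changes of AXIN2 and LEF1, commonly read target genes of the pathway.

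Canonical Wnt signalling controls how much beta-catenin, the product of CTNNB1, reaches the nucleus. Without a Wnt ligand, a cytoplasmic complex of axin, APC and the kinases GSK3 and CK1 phosphorylates beta-catenin and marks it for degradation. When a ligand engages a Frizzled receptor with the co-receptor LRP5 or LRP6, the complex is restrained, and beta-catenin joins TCF and LEF proteins on DNA and raises transcription of targets such as AXIN2, which feeds back on the pathway. Secreted frizzled-related proteins such as SFRP1 bind ligands outside the cell, and in several tumour types SFRP1 is known to be silenced. Because beta-catenin is regulated mainly through its protein, RNA levels report on the supply of the components and on the output of target genes, not on beta-catenin itself.

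HEK293T is an established human embryonic kidney line that carries the SV40 large T antigen. UBR7 is a PHD finger and UBR box protein that the study examines as a histone H3 chaperone, and it was disrupted with CRISPR-Cas9. RNA was sequenced from 6 libraries: 3 of parental cells, 2 of the knockout line UBR7KO1 and 1 of the knockout line UBR7KO2. The labels do not say whether each knockout line grew from a single cell, nor whether the libraries of a line came from separate cultures. The p-values thus rest on the spread between these libraries, which may be technical. In the limma fits used below, a gene's error also draws on the spread of all other genes. Parental library 1 shares its date code with UBR7KO1 library 1, and parental library 2 with UBR7KO1 library 2. These are called the dated pairs. Parental library 3 and the UBR7KO2 library carry no date code and are set side by side as the undated pair, an inference from the labels, so the knockout line and the pair cannot be told apart. Open chromatin was profiled by ATAC-seq in 2 parental and 2 UBR7KO libraries, and binding by ChIP against GFP, with an input library, in cells whose own UBR7 carries a GFP tag. All cells were HEK293T in the same serum-containing medium with no further treatment.

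The 6 RNA libraries held 22153291 to 29811908 reads assigned to genes. All 8 HEK293T marker genes listed were in the table, with a summed level of 775 to 1219 CPM (read counts scaled to the library total) in the parental libraries and 885 to 1213 CPM in the knockout libraries. VIM made up the largest part of this sum, at 487 to 830 CPM over the 6 libraries, and PAX2 the smallest, at 0.721 to 1.92 CPM. Of 17 markers of other cell types, 4 were in the table, namely COL3A1, LUM, CDKN2A and LYZ. The summed level of COL3A1 and LUM was 2.98 to 10.3 CPM in parental and 1.38 to 5.49 CPM in knockout libraries, and that of CDKN2A 78.4 to 143 and 44.3 to 183 CPM. Their part in any result was not tested. UBR7 RNA was at 55.0, 62.2 and 62.2 CPM in parental cells, 27.0 and 26.3 CPM in the UBR7KO1 libraries and 64.5 CPM in the UBR7KO2 library. It fell in the dated pairs (log2 change -1.10, SE 0.13; limma with the date as a block, adjusted p = 1.84e-05; without the block, adjusted p = 1.00) and was not lower in the undated pair. A frameshift need not lower the RNA, so this level does not check the library labelled UBR7KO2.

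SFRP1 (ENSG00000104332, chromosome 8, minus strand) was measured at 2.52, 2.75 and 2.13 CPM in the parental libraries. In the UBR7KO1 libraries it stood at 0.189 and 0.0392 CPM, and in the UBR7KO2 library at 0.168 CPM. All 3 knockout libraries lay far below all 3 parental ones, and SFRP1 was therefore low in both knockout lines, including the one whose UBR7 RNA was not reduced. The values rest on few reads, 69, 61 and 62 in the parental libraries against 5, 1 and 5 in the knockout libraries. As a ratio of knockout to parental, the first dated pair gave 0.0753 (exact 95% interval 0.0237 to 0.184), the second 0.0142 (0.000355 to 0.0824) and the undated pair 0.0788 (0.0247 to 0.194), where the intervals cover counting error only. On the log2(CPM + 1) scale, which understates the change of a gene this low, the 3 pairs moved by -1.56, -1.85 and -1.42. SFRP1 passed the filter on low values only through its parental libraries. In these bulk libraries, fewer cells that express a gene and less RNA per cell cannot be told apart.

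The surroundings of SFRP1 did not share its low level in the knockout libraries. The 43 other tested genes within 5 Mb had median log2(CPM + 1) changes of -0.06, 0.01 and -0.07 in the 3 pairs. The nearest tested gene on one side, GOLGA7, lies 181 kb away and measured 69.8, 57.8 and 53.0 CPM in the parental and 57.5, 55.9 and 54.1 CPM in the knockout libraries. On the other side ADAM32, 1977 kb away, ranged from 1.58 to 3.14 CPM in the parental and from 1.64 to 3.07 CPM in the knockout libraries. Both neighbours overlapped between the groups. The genes whose levels followed SFRP1 most closely over the 6 libraries, among 4774 genes that ranged over at least 1 log2 unit, were PAXIP1-AS2 (Pearson r = 0.95), BMP2 (r = 0.94), which encodes a bone morphogenetic protein, and ZNF883 (r = 0.93). BMP2 measured 7.48, 3.70 and 3.91 CPM in the parental libraries and at 1.33, 0.549 and 0.503 CPM in the knockout libraries. These correlations describe 6 libraries that share their pairs and depth, and the genes were picked as the closest of all those compared.

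APC2 (ENSG00000115266, chromosome 19, 1446300 to 1473243 on the plus strand in the GRCh37-type coordinates of the table) is a paralogue of the tumour suppressor APC with prominent expression in the nervous system. It differed in the opposite direction to SFRP1, and by a large amount in the UBR7KO1 libraries. In the parental libraries APC2 stood at 5.76, 2.93 and 0.583 CPM. It reached 37.5 and 23.3 CPM in the UBR7KO1 libraries but 0.772 CPM in the UBR7KO2 library. Both UBR7KO1 libraries lay above every parental library, and the UBR7KO2 library lay within the parental range. The ratio of knockout to parental was 6.51 (exact 95% interval 5.50 to 7.75) in the first dated pair, 7.96 (6.15 to 10.4) in the second and 1.32 (0.676 to 2.64) in the undated pair, from 158, 65 and 17 parental reads against 990, 595 and 23 knockout reads. The parental libraries themselves spread widely, with a mean of 3.09 ± 2.59 CPM (SD, n = 3), and the lowest was the parental library of the undated pair. A low parental level and a small change thus came from the same pair.

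RefSeq lists 2 starts for APC2, and the 250 bases before each are shown because this is the gene of the 10 that was far higher in UBR7KO1 and that also carried a UBR7 peak near its annotated start. They come from the RefSeq promoter table of GRCh38.p14, plus strand, with CpG dinucleotides in capitals. The UBR7 peak and the annotated start are in GRCh37-type coordinates. The windows were not placed against the peak, and whether it lies in or near them was not tested.
APC2 at chr19:1449871-1450120: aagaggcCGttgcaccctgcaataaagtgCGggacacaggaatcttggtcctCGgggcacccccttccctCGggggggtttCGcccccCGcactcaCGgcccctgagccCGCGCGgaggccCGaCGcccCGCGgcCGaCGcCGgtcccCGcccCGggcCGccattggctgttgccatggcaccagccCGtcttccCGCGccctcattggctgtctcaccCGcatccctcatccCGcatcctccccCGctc
APC2 at chr19:1452734-1452983: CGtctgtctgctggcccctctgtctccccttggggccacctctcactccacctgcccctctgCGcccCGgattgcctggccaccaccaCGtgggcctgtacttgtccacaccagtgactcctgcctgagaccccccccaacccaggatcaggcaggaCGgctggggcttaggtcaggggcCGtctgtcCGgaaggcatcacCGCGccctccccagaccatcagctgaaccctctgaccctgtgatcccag
The first window holds 26 CpG dinucleotides and is 72.0% G or C, and the second holds 9 and is 66.8% G or C. Over all 35116 RefSeq promoter windows of this length the medians were 11 CpG dinucleotides and 58.0% G or C. CpG content is a description of these letters, and DNA methylation was not measured.

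The neighbours of APC2 were not raised with it. The 146 other tested genes within 5 Mb had median log2(CPM + 1) changes of 0.13, 0.07 and 0.05 in the 3 pairs. PCSK4, 8.18 kb beyond its end, measured 4.52, 2.26 and 0.549 CPM in the parental and 4.02, 2.71 and 0.537 CPM in the knockout libraries, each knockout value close to that of its pair. AC027307.3, 4.36 kb on the other side, ranged from 0.813 to 2.26 CPM and from 0.628 to 1.70 CPM. C19orf25 and CTB-25B13.12 overlap APC2 on the opposite strand, and whether the counting used strand is not given in the sources used here, so reads over the shared stretch could have been assigned either way. C19orf25 ranged from 14.5 to 24.1 CPM in the parental and from 12.6 to 23.7 CPM in the knockout libraries, and CTB-25B13.12 from 2.47 to 6.67 CPM and from 3.15 to 5.72 CPM. The groups overlapped for all 4 of these genes. Levels of HTRA1, a secreted serine protease (Pearson r = 0.99), and CHST3, a chondroitin sulfotransferase (r = 0.99), followed APC2 closely over the 6 libraries. HTRA1 measured 17.5, 15.1 and 11.9 CPM in the parental libraries, 31.0 and 28.0 CPM in UBR7KO1 and 10.5 CPM in UBR7KO2. As with APC2, the UBR7KO1 libraries were highest and the UBR7KO2 library was not raised.

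**Figure D1:**
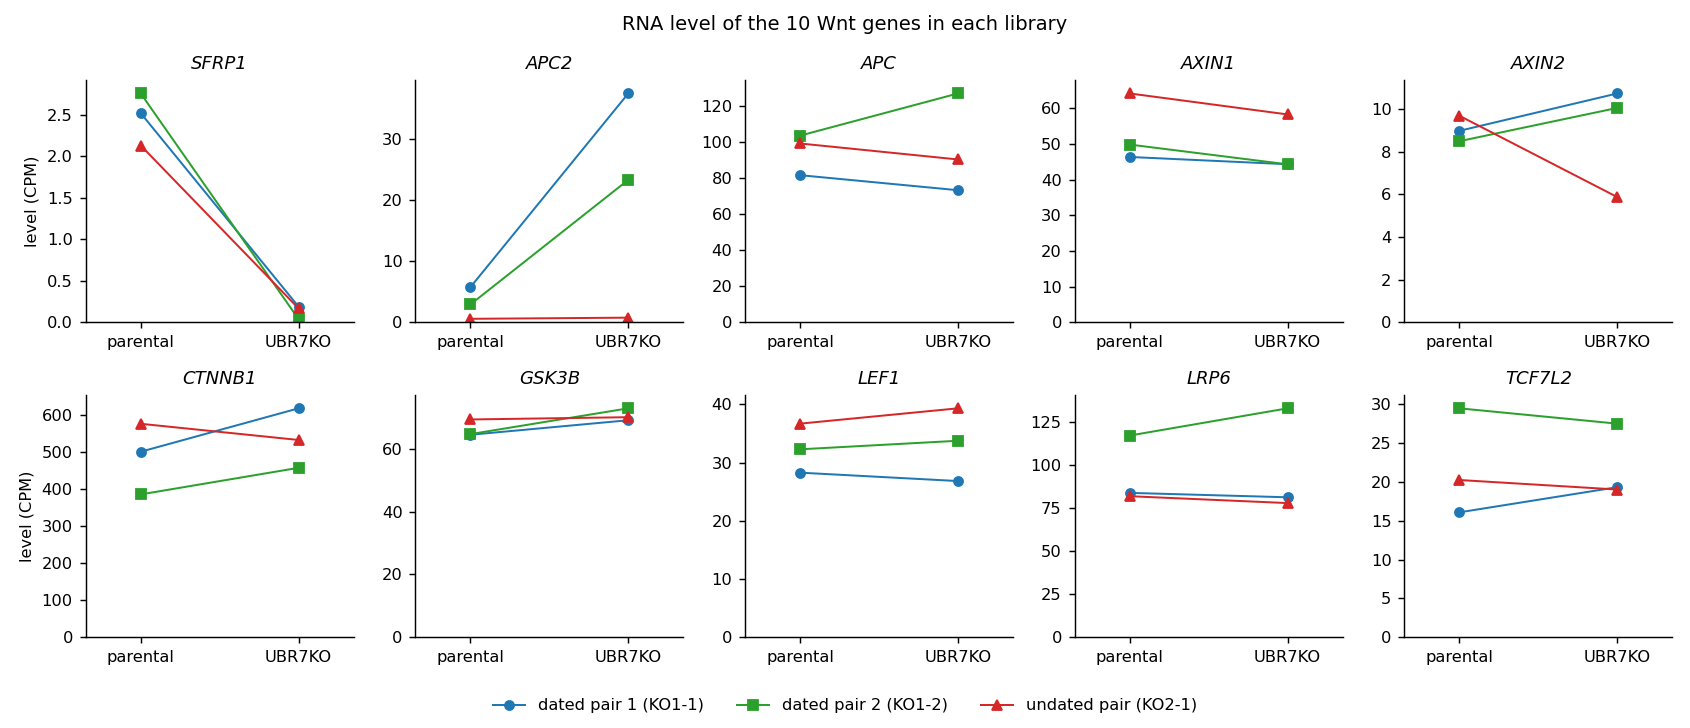
RNA level in CPM of each of the 10 genes in the 3 parental and 3 UBR7KO libraries, each line joining the 2 libraries of a pair (blue and green, dated pairs of UBR7KO1; red, undated pair of UBR7KO2), with every axis starting at 0. SFRP1 is lower in the knockout library of all 3 pairs, at most 0.189 CPM against at least 2.13 CPM, APC2 is far higher in the knockout libraries of the 2 dated pairs, and the other panels show levels that overlap between the groups.

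AXIN2 (chromosome 17, 63524681 to 63557765, minus strand) encodes a scaffold of the destruction complex and is itself induced by Wnt signalling. It measured 8.97, 8.49 and 9.68 CPM in the parental libraries, 10.7 and 10.0 CPM in the UBR7KO1 libraries and 5.87 CPM in the UBR7KO2 library. It was thus slightly higher in both UBR7KO1 libraries than in any parental library and lowest of all in the UBR7KO2 library. The parental mean was 9.05 ± 0.599 CPM (SD, n = 3) and the knockout mean 8.88 ± 2.63 CPM (SD, n = 3). Over all 6 libraries the log2 change was -0.06 (95% interval -0.73 to 0.61; adjusted p = 1.00, limma). In the dated pairs it was 0.23 (95% interval -0.15 to 0.60; adjusted p = 0.589, limma with the date as a block; 1.00 without it). With the pair as a block, the interval over 6 libraries was -0.53 to 0.40 (limma, adjusted p = 0.973). Both comparisons share the libraries of the dated pairs. An exact two-sided permutation test of the CPM in 3 against 3 libraries gave p = 1.0, where 0.1 is the smallest p the design can give.

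The change of AXIN2 in the undated pair, -0.64, was opposite to the 0.23 and 0.22 of the dated pairs. The change in the undated pair minus that in the dated pairs was -0.86 (SE 0.31, 95% interval -1.51 to -0.22). The undated pair is a single pair with no spread of its own. This error thus comes from the dated pairs and, to a large part, from other genes. It assumes that the undated pair varies like the dated ones. The difference did not pass the threshold over all genes (limma, adjusted p = 0.125). For this difference 689 of 13697 tested genes were called (5.03%), 234 higher (1.71%) and 455 lower (3.32%). The 59 other tested genes within 5 Mb of AXIN2 had median changes of 0.02, 0.10 and -0.29 in the 3 pairs, so the surroundings of AXIN2 were also lower in the undated pair; the part of this in the AXIN2 value was not tested.

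LEF1 (chromosome 4, 108968701 to 109090112, minus strand), a DNA-binding partner of beta-catenin and in many cells also its target, measured 28.3, 32.3 and 36.7 CPM in the parental libraries, 26.8 and 33.7 CPM in UBR7KO1 and 39.3 CPM in UBR7KO2. The libraries of a pair resembled each other more than those of a genotype. The parental mean was 32.4 ± 4.21 CPM and the knockout mean 33.3 ± 6.26 CPM (SD, n = 3 each). The log2 change was 0.03 over 6 libraries (95% interval -0.48 to 0.54; limma, adjusted p = 1.00) and -0.01 in the dated pairs with the date as a block (95% interval -0.29 to 0.28; limma, adjusted p = 0.990, or 1.00 without the block). With the pair as a block, the interval over 6 libraries was -0.24 to 0.29 (limma, adjusted p = 0.976). The exact permutation p was 0.8. Neither AXIN2 nor LEF1 passed the test in either comparison, while SFRP1 was at most 7.88% of its parental level in every pair. The intervals still allow a change of AXIN2 in the dated pairs of up to 0.60 on the log2 scale. All libraries come from established lines, so no order in time between SFRP1, APC2 and the targets was measured.

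**Figure D2:**
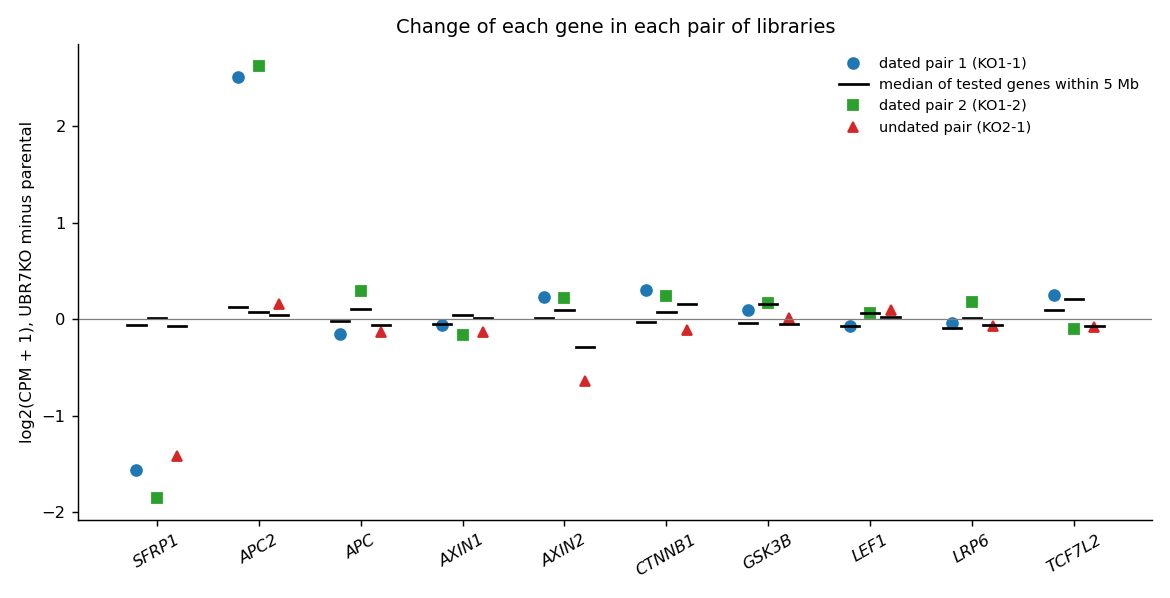
Change of each gene from parental to UBR7KO on the log2(CPM + 1) scale (vertical axis) in the 2 dated pairs (blue circles, green squares) and the undated pair (red triangles); black bars give the median change of the tested genes within 5 Mb in the same pair. SFRP1 lies below -1.4 in all 3 pairs and APC2 above 2.5 in the dated pairs, whereas the other 8 genes lie between -0.64 and 0.30.

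At the cell surface, LRP6 (chromosome 12, 12268959 to 12419946, minus strand), the co-receptor that is phosphorylated on ligand binding, measured 83.7, 117 and 81.8 CPM in the parental libraries and at 81.2, 133 and 77.8 CPM in the knockout libraries. The second dated pair was high in both genotypes. Its log2 change was 0.02 over 6 libraries (SE 0.26, or 0.11 with the pair as a block). In the dated pairs it was 0.07 (SE 0.12, limma with the date as a block, adjusted p = 0.842).

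Within the destruction complex, the widely expressed paralogue APC (chromosome 5, 112043195 to 112181936, plus strand) did not show the difference seen for APC2. It measured 81.8, 104 and 99.4 CPM in the parental and 73.4, 127 and 90.5 CPM in the knockout libraries, and the pairs moved by -0.15, 0.29 and -0.13. AXIN1 (chromosome 16, 337440 to 402673, minus strand), the constitutive scaffold and limiting component in many cells, stood at 46.3, 49.8 and 64.1 CPM against 44.3, 44.3 and 58.2 CPM. AXIN1 was lower in each of the 3 pairs, by 0.06, 0.17 and 0.14 on the log2 scale, which did not pass the test (dated pairs, limma with the date as a block, adjusted p = 0.724). GSK3B (chromosome 3, 119540170 to 119813264, minus strand), the kinase that phosphorylates beta-catenin, varied least in relative terms, with 64.5, 64.7 and 69.4 CPM in the parental and 69.1, 72.9 and 70.1 CPM in the knockout libraries. It was higher in all 3 pairs, by 0.10, 0.17 and 0.01, again short of the threshold (limma with the date as a block, adjusted p = 0.642). Over all tested genes, 15.5% were higher and 11.5% lower in all 3 pairs.

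CTNNB1 (chromosome 3, 41236328 to 41301587, plus strand) measured 501, 385 and 576 CPM in the parental libraries, 618 and 457 CPM in UBR7KO1 and 532 CPM in UBR7KO2. Each UBR7KO1 library exceeded the parental library of its date, and the UBR7KO2 library was below its own. The log2 changes were 0.30, 0.25 and -0.11, and the mean over the dated pairs was 0.27 (SE 0.12, 95% interval 0.02 to 0.53), with an unadjusted p of 0.0379 and an adjusted p of 0.271 (limma with the date as a block). Leaving out 1 library, in fits without the block, moved the mean to between 0.06 (without UBR7KO1 library 1) and 0.49 (without UBR7KO1 library 2). It was 0.09 without parental library 2 and 0.46 without parental library 1. Each of these fits breaks a pair, so its value also holds the difference between the dates. The change in the undated pair minus that in the dated pairs, -0.39 (SE 0.22), rests on the same assumption as for AXIN2 and did not pass the threshold (limma, adjusted p = 0.379).

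TCF7L2 (chromosome 10, 114710009 to 114927437, plus strand), the other DNA-binding partner of beta-catenin among the 10, measured 16.1, 29.5 and 20.2 CPM in the parental and 19.3, 27.5 and 19.0 CPM in the knockout libraries. Its changes of 0.25, -0.10 and -0.09 scattered around 0 (6 libraries, 0.02, SE 0.28, or 0.13 with the pair as a block). In the dated pairs with the date as a block the change was 0.08 (SE 0.15, limma, adjusted p = 0.860). Exact permutation tests over the 3 against 3 libraries gave p = 0.2 for GSK3B, 0.5 for AXIN1, 0.6 for CTNNB1 and 1.0 each for APC, LRP6 and TCF7L2. None of the 8 tested genes reached 0.1, the smallest p possible. The permutation ignored the pairs, so the spread between pairs could hide a change. The authors' deposited table gives the same picture for these genes, with a log2 change of -0.07 for AXIN2, 0.03 for LEF1 and 0.11 for CTNNB1, and of -4.17 for SFRP1 and 2.70 for APC2.

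To see whether the starts of the nuclear factors or of the other members carry the letters that TCF and LEF proteins bind, 11 RefSeq windows of 7 of the 10 genes (GRCh38.p14, 250 bases before the start) were searched on both strands for the TCF/LEF core CTTTG followed by AA, AT, TA or TT. A single window held a match, the second of 3 windows of TCF7L2, on the plus strand 133 to 127 bases before that start. Its sequence is shown with the match in capitals, beside the only LEF1 window, which held none and is shown with its CpG dinucleotides in capitals (minus strand of the genome, written along the gene).
TCF7L2 at chr10:113126383-113126632: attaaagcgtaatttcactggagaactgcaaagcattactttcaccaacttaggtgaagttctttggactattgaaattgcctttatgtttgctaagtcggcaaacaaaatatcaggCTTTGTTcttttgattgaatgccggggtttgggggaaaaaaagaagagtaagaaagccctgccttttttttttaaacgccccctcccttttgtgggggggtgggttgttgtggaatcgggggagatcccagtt
LEF1 at chr4:108166302-108166551: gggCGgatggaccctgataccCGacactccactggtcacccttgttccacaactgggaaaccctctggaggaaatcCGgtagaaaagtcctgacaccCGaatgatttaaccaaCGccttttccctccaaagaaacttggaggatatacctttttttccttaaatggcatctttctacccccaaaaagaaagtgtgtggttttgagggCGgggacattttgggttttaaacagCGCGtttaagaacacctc
Of all 35116 windows, 12.0% held a match, so 1 of 11 is close to the background. A match is a description of the letters, and no match says only that these letters are not in the window. The LEF1 window holds 8 CpG dinucleotides and is 47.6% G or C, below the medians given above. AXIN2, LRP6 and SFRP1 had no window in this set, so their starts were not searched for these letters.

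The wider pathway was read from 158 genes in 10 lists by role, of which 122 were in the table, all tested over 6 libraries and 120 in the dated pairs. SFRP1 and APC2 are on these lists but were chosen for their RNA change, so calls are counted over the others. Without the date as a block, limma called 0 of the other 120 over 6 libraries and 0 of the other 118 in the dated pairs, as it called none of all genes tested (0.0% of 13697 over 6 libraries and 0.0% of 14059 in the dated pairs). At an unadjusted p under 0.05 it found 23 higher and 47 lower genes over 6 libraries, and 115 higher and 101 lower in the dated pairs. The shared date codes pair the libraries. Fits without the block count the spread between pairs as error. A high adjusted p from them thus does not show that a gene is unchanged. With the date as a block, 496 genes were called in the dated pairs (3.53%), 303 higher (2.16%) and 193 lower (1.37%), and edgeR's quasi-likelihood test with the same block on the recovered reads called 317 higher and 306 lower. Over all 6 libraries with the pair as a block limma again called 0, with 473 higher and 282 lower genes at an unadjusted p under 0.05.

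Of the other 118 Wnt genes, the blocked fit called 1 higher (0.847%), CELSR2, and 3 lower (2.54%), FZD10, MYC and ID2, against 2.16% and 1.37% of all tested genes. The counts are too small to set these shares apart. The median change of the 120 listed genes was 0.11 on the log2 scale in the dated pairs, against 0.03 over all tested genes. By pair, 83, 83 and 42 of the 122 (68.0%, 68.0% and 34.4%) were higher in the knockout, against 49.7%, 62.5% and 47.2% of all tested genes, with median changes of 0.11, 0.12 and -0.08, against medians of -0.003, 0.07 and -0.02 over all tested genes. These shares were not tested, and in the second dated pair most genes were higher whether listed or not.

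**Figure D3:**
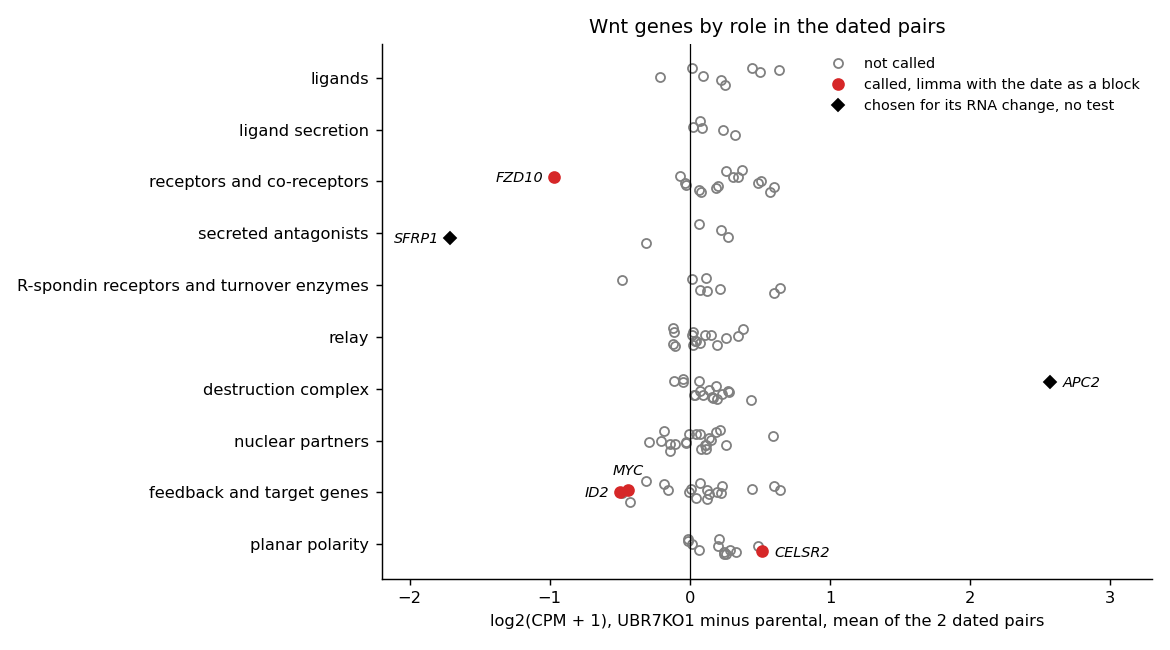
Change of each listed Wnt gene in the dated pairs on the log2(CPM + 1) scale (horizontal axis), by role; a gene on 2 lists appears in both rows, and vertical scatter within a row only separates the points. Filled red points passed limma with the date as a block (FZD10, MYC and ID2 lower; CELSR2 higher), black diamonds are SFRP1 and APC2, shown with no test, and most open points lie between -0.5 and 0.65.

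Among 16 receptors and co-receptors, FZD10 was the called member (6.25% called lower, against 1.37% of all tested genes). It encodes a Frizzled receptor and was named, as were CELSR2, ID2 and MYC, after its values were seen. FZD10 measured 4.92, 5.15 and 3.74 CPM in the parental libraries, 2.69 and 1.57 CPM in UBR7KO1 and 0.604 CPM in UBR7KO2. Like SFRP1, it was lower in all 3 knockout libraries than in all parental ones (dated pairs, log2 change -0.97, SE 0.21; limma with the date as a block, adjusted p = 0.0118). Of the 16 receptors, FZD10 among them, 10 (62.5%) and 14 (87.5%) were higher in the 2 dated pairs and 5 (31.2%) in the undated pair, beside the shares of all tested genes given above, with no test of the group. FZD2, for example, measured 8.46, 4.79 and 8.68 CPM in the parental libraries, 14.5 and 7.14 CPM in UBR7KO1 and 6.61 CPM in UBR7KO2, and did not pass the test (adjusted p = 0.0823, limma with the date as a block).

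Of 24 ligands, 8 were in the table and none was called. WNT5A, the most expressed and best known for signalling without beta-catenin, measured 43.5, 57.9 and 44.3 CPM in the parental and 51.7, 66.3 and 40.5 CPM in the knockout libraries. All 5 genes of ligand secretion were in the table, led by TMED2, and none was called. Of 13 secreted antagonists 6 were in the table. SFRP1 was left out of the calls, and none of the others was called. DKK3, the most expressed of the other antagonists in the table, measured 3.21, 2.57 and 1.30 CPM in the parental libraries against 3.52, 3.84 and 1.38 CPM in the knockout libraries. DKK1, an antagonist of LRP6 that is also a target gene, ranged from 0.767 to 1.17 CPM and from 0.503 to 1.40 CPM. Neither approached the size of the SFRP1 change, and the groups overlapped for both.

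R-spondin receptors and the enzymes that remove Wnt receptors or ligands gave 8 of 10 genes in the table, led by LGR4, with none called. RNF43, a ubiquitin ligase that removes Frizzled receptors, measured 4.56, 5.82 and 11.3 CPM in the parental libraries and 3.41, 3.41 and 4.90 CPM in the knockout libraries. The highest knockout library exceeded the lowest parental one, so the groups overlapped (dated pairs, limma with the date as a block, adjusted p = 0.236). The 16 relay genes, led by CSNK1E, had no call, and 13, 7 and 8 of them were higher in the 3 pairs. In the destruction complex, 18 of 21 genes were in the table. APC2 was left out of the calls, and no other gene was called. By pair, 14, 14 and 2 of the 18 were higher. The 21 nuclear partners in the table, led by CHD8, had no call.

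Among feedback and target genes, 21 of 28 were in the table and 20 were tested in the dated pairs, with ID2 and MYC called lower and none higher. That is 10.0% called lower, against 1.37% of all tested genes. This share rests on 2 genes, with MYC close to the threshold, and was not tested. ID2, an inhibitor of helix-loop-helix factors, measured 141, 64.6 and 125 CPM in the parental and 83.5, 54.2 and 93.0 CPM in the knockout libraries (dated pairs, log2 change -0.50, SE 0.13; limma with the date as a block, adjusted p = 0.0368). It was lower in all 3 pairs. MYC measured 165, 125 and 169 CPM in the parental libraries, 137 and 81.8 CPM in UBR7KO1 and 217 CPM in UBR7KO2. MYC was lower in the dated pairs (-0.44, SE 0.12; limma with the date as a block, adjusted p = 0.0498) and higher in the undated pair. Of the targets more closely tied to the pathway, LGR5, NKD1, ZNRF3, TCF7 and APCDD1 were not called. APCDD1 measured 2.63, 2.66 and 1.17 CPM in the parental libraries against 4.05, 5.02 and 1.68 CPM in the knockout libraries (dated pairs, limma with the date as a block, adjusted p = 0.117). Over the 21 targets, 13, 11 and 10 were higher in the 3 pairs, with medians of 0.13, 0.03 and -0.02. Of 13 planar polarity genes, led by SCRIB, 1 was called higher (7.69%, against 2.16% of all tested genes), CELSR2, a large cadherin. It measured 29.4, 20.1 and 20.0 CPM in the parental libraries, 43.9 and 28.1 CPM in UBR7KO1 and 16.7 CPM in UBR7KO2 (dated pairs, 0.51, SE 0.14; limma with the date as a block, adjusted p = 0.0398).

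**Figure D4:**
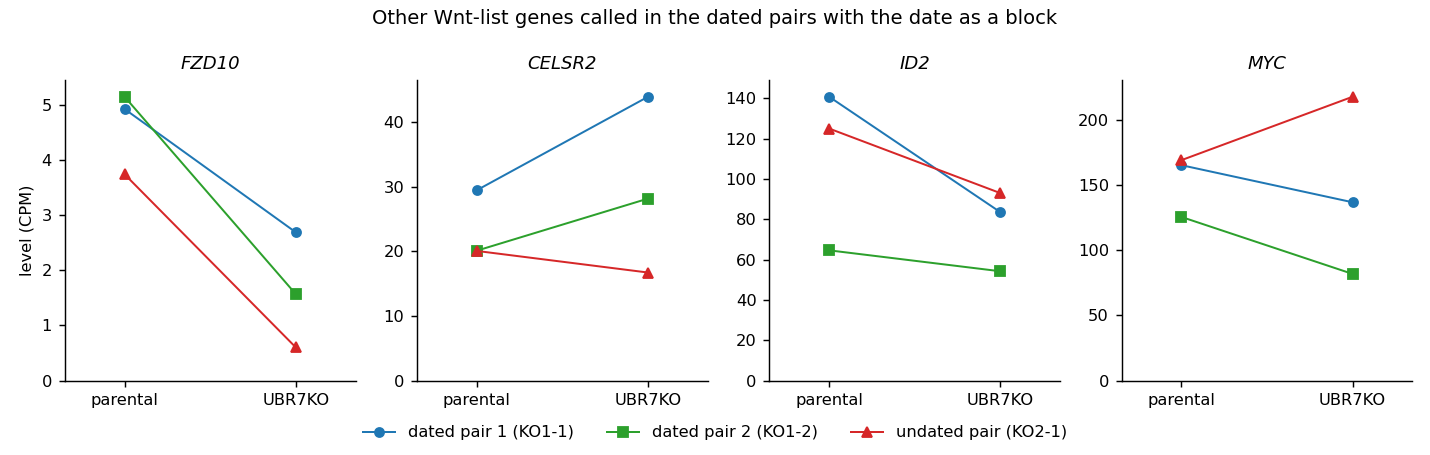
RNA level in CPM of FZD10, CELSR2, ID2 and MYC in the parental and UBR7KO libraries, each line joining the libraries of a pair, with axes starting at 0. FZD10 and ID2 are lower in the knockout library of all 3 pairs, while CELSR2 and MYC move one way in the dated pairs and the other way in the undated pair.

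Open chromatin at the gene starts was read from the authors' broad peaks, counting a gene where a peak lay within 1 kb of its annotated start. The lists differ in length, with 10507 and 38529 peaks in the parental libraries and 15310 and 45920 in the UBR7KO libraries, so a peak missing from a shorter list is no sign of closed chromatin. Of the 10 genes, 4 had a peak in parental library 1 (against 55.5% of all tested genes), 7 in parental library 2 (80.8%), 6 in UBR7KO library 1 (70.5%) and 8 in UBR7KO library 2 (83.3%). The 4 genes APC, AXIN1, AXIN2 and GSK3B had one in all 4 libraries, 40.0% of the 10 against 52.9% of tested genes. With 2 libraries against 2 no test was made.

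At the AXIN2 start all 4 libraries had a broad peak, with −log10 q of 1.79 and 1.30 in the parental and 1.53 and 1.02 in the UBR7KO libraries. These are the peaks' own values from the authors. At LEF1 the longer list of each genotype held a peak just inside the gene, 27 to 288 bases downstream of the start in parental library 2 (−log10 q of 0.311) and 9 to 316 bases in UBR7KO library 2 (2.96), and the 2 shorter lists held none. LRP6 and TCF7L2 had a peak over the start in 3 of the 4 lists, all but parental library 1.

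SFRP1 had no peak within 1 kb of its start in any library. The nearest lay 181 and 94.4 kb away in the parental libraries and 181 and 38.6 kb away in the UBR7KO libraries, the last of these inside the gene. Peak calls thus gave no start signal for SFRP1 in either genotype to compare. APC2 had a peak near its annotated start in UBR7KO library 2 only, 1162 to 980 bases upstream (−log10 q of 1.60). The nearest peaks of the others lay 32.9 and 7.85 kb away in the parental libraries and 7.39 kb away in UBR7KO library 1. The names of both UBR7KO lists carry the sample code of the UBR7KO2 RNA library, in which APC2 RNA was not raised, while the labels of the ATAC samples name no line. CTNNB1 had no peak within 1 kb of the start given in the table, but all 4 libraries had one 4.02 to 4.94 kb downstream, with −log10 q of 2.71 and 2.09 in the parental and 1.28 and 13.9 in the UBR7KO libraries. The table gives 1 start per gene, so a peak at another start of the same gene is missed by this count. Whether the downstream peaks of CTNNB1 lie at another of its starts was not tested.

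Binding of GFP-tagged UBR7 came from a single list of 5895 peaks with 1 ChIP library, so it has no replicate check. Within 1 kb of the start, 4 of the 10 genes had a peak, APC2, GSK3B, LEF1 and LRP6, against 24.9% of all tested genes. The peak at APC2 (chromosome 19, 1445152 to 1445507), 1148 to 793 bases upstream, had a score of 148 and ranked 390 of 5895. It overlapped the ATAC peak of UBR7KO library 2. GSK3B had its stronger peak 15 to 490 bases downstream of the start (score 151, rank 367). The peak at LEF1, 298 to 160 bases upstream, was weak (score 57.6, rank 3930), and the stronger of 2 at LRP6 spanned the start (score 70.3, rank 2414). AXIN2 had a peak outside the window, 1433 to 1718 bases downstream (score 74.5). CTNNB1 had one 4432 to 4829 bases downstream with a score of 204, which overlapped its downstream ATAC peak in every ATAC list. For SFRP1 the nearest UBR7 peak lay 94.8 kb away. Of the 2 genes with large RNA changes, APC2 had a UBR7 peak near its annotated start and SFRP1 had none, while GSK3B, with a UBR7 peak of similar score, did not pass the test for RNA.

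**Figure D5:**
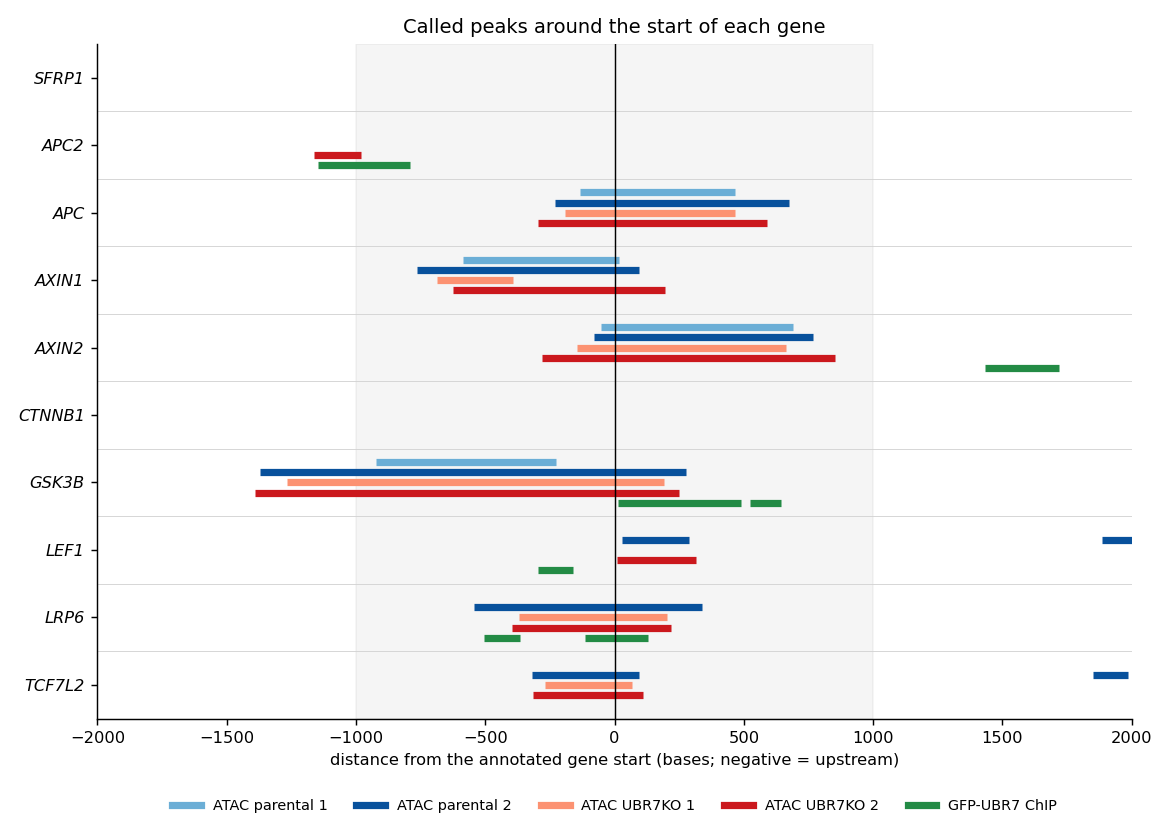
Peaks of the 4 ATAC lists (blue, parental; red, UBR7KO) and of the GFP-UBR7 list (green) around the annotated start of each gene, as distance in bases along the gene, with the 1 kb window shaded. SFRP1 and CTNNB1 have no peak in the 4 kb shown, APC2 has one ATAC and one GFP-UBR7 peak at the edge of the window, and APC, AXIN1, AXIN2 and GSK3B have an ATAC peak in all 4 lists.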

How the data were processed

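RNA-seq of 6 HEK293T libraries, ATAC-seq of 4 and a GFP ChIP of 1 with its input were used; 6 CUT&RUN samples were not analysed here. Bowtie2 2.3.1, MACS2, edgeR, HTSeq 0.6.1 and TopHat2 2.1.0 are among the tools, and hg19 and hg38 among the builds, in the submitters' processing notes, with no role for each. The RNA table deposited by the authors holds CPM, and every value came out as a whole number of reads (within 1e-06) once multiplied by its library total, 22153291 to 29811908 reads. The table's p-values and log2 changes are the authors', from their own fit. The ATAC lists deposited by the authors give −log10 q per broad peak, and the deposited GFP-UBR7 list gives a score per peak. There is 1 list per library. Table and peak coordinates are of GRCh37 type and printed 1-based; which build was used is not given in the sources used here.

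Here CPM were taken as log2(CPM + 1), which understates changes of low genes, and tested with limma 3.58.1 (trend, robust; R 4.3.3), Benjamini-Hochberg over all genes above 1 CPM in at least 3 of the 6 libraries, or 2 of the 4 libraries of the dated pairs. Called means an adjusted p under 0.05. The planned comparison had no block. Since the labels give shared date codes, blocked values stand beside it. The blocked fits leave few degrees of freedom per gene, so their errors rest largely on the spread of other genes. Deviations from the group means correlated at 0.76, 0.74 and 0.63 within pairs and at -0.44 to -0.25 between them. Single genes were tested by exact permutation of the 6 libraries without regard to pair. A count of 0 reads allows up to 3 reads, which is 0.101 to 0.135 CPM. The code was tested on simulated data. Alternatives were edgeR 4.0.16 and DESeq2 1.42.0 on recovered reads, a pseudocount of 0.1, no filter, TMM scaling, each library left out, and other windows and thresholds for peaks. Promoter sequences came from RefSeq (GRCh38.p14), matched by symbol for 7 of 10 genes.

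The genes and lists were chosen with earlier results of these data known. Named genes were all 10 members, UBR7, up to 3 called or else the most expressed gene per list, the 3 genes most alike to SFRP1 and to APC2, and their nearest neighbours. A gene that this rule names is not reported here.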

Additional observations from a re-analysis of the deposited data

Results flagged for a closer look

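The change in the undated pair (UBR7KO2) was set against that in the dated pairs (UBR7KO1) in limma with the pair as a block. The fit has 1 residual degree of freedom, from the 2 dated pairs, so its errors rest largely on the spread of other genes. The undated pair has no spread of its own and is assumed to vary like them, and the line and the pair cannot be told apart. AXIN2 and CTNNB1 each moved one way in both dated pairs and the other way in the undated pair. The differences, UBR7KO2 minus UBR7KO1, were -0.86 (SE 0.31, adjusted p = 0.125) for AXIN2 and -0.39 (SE 0.22, adjusted p = 0.379) for CTNNB1, and neither passed the test.

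Under that assumption the adjusted p was under the threshold for UBR7 (1.15, SE 0.22, adjusted p = 0.00176), which was lower in UBR7KO1 alone, the planar polarity cadherin CELSR3 (1.12, SE 0.24, adjusted p = 0.0049), MYC (0.80, SE 0.21, adjusted p = 0.0241), TRABD2A (-1.37, SE 0.37, adjusted p = 0.0264) and WNT3A (-1.40, SE 0.37, adjusted p = 0.0229). CELSR3 measured 51.8, 30.9 and 12.6 CPM in the parental libraries against 54.5, 41.7 and 34.0 CPM in the knockout libraries, so the difference comes with a low parental value in the undated pair. WNT3A, a ligand of the canonical pathway, measured 3.10, 1.08 and 2.57 CPM against 4.17, 1.33 and 0.604 CPM. TRABD2A, which encodes a protease that inactivates Wnt ligands, measured 1.42, 2.30 and 3.60 CPM against 1.97, 2.63 and 1.07 CPM.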

How the results depend on the processing

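The count of called genes depended on the fit. Over 6 libraries limma called 0, DESeq2 7, and TMM scaling with the replicate block 4. In the dated pairs, 0 became 496 with the replicate block, 542 with TMM scaling and the block, 623 with edgeR's quasi-likelihood test and the block and 22 with DESeq2, and 3 to 18 when a library was left out, which leaves 1 library in an arm that is assumed to vary like the other. For the Wnt lists, 0 became 6 under each of the 3 blocked fits and 2 with DESeq2. These counts include SFRP1 and APC2, which were chosen for their RNA change, and the 2 with DESeq2 are these genes. Without them, limma with the date as a block called 0.847% of the listed genes higher and 2.54% lower. The shares over all tested genes were 2.16% and 1.37%. The combinations of block with TMM scaling or edgeR were chosen after seeing the data. The replicate block changed no call of the 8 members other than SFRP1 and APC2, and none of the 8 passed under any setting run.

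SFRP1 kept its direction, at -3.53 over 6 libraries with a pseudocount of 0.1. Small changes turned sign. APC over 6 libraries was -0.0161 under TMM scaling with or without the block and -0.0164 with edgeR and the block. TCF7L2 was -0.0329 with edgeR and -0.0299 with DESeq2 over 6 libraries, and -0.0129 and -0.0221 in the dated pairs. Leaving out a library gave, over 6 libraries, -0.21 to 0.18 for APC, -0.25 to 0.014 for AXIN1, -0.20 to 0.18 for AXIN2 (0.18 without the UBR7KO2 library), -0.014 to 0.27 for CTNNB1, -0.10 to 0.17 for LEF1, -0.22 to 0.19 for LRP6 and -0.17 to 0.25 for TCF7L2. In the dated pairs it gave -0.32 to 0.46 for APC, 0.06 to 0.49 for CTNNB1, -0.17 to 0.15 for LEF1, -0.28 to 0.42 for LRP6 and -0.34 to 0.49 for TCF7L2. The fits with a library left out had no block. Each breaks a pair, so its value also holds the difference between pairs. With a −log10 q of at least 5, 0 of the 10 genes had an ATAC peak within 1 kb of the start in any list. At this threshold few tested genes had one, 1.27% and 4.04% in the parental lists and 1.29% and 11.7% in the UBR7KO lists. Beyond the fewer samples, the broken pairs or the stricter peaks, the cause was not tested. Depth limits SFRP1, with at most 5 reads in a knockout library.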
